A study of Mus musculus with 6 samples.

Results

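The genes described here are 9 subunits of ionotropic glutamate receptors other than the NMDA type: the AMPA receptor genes Gria1, Gria2, Gria3 and Gria4, the delta receptor gene Grid1, and the kainate receptor genes Grik1, Grik2, Grik4 and Grik5. They were taken by symbol from the gene count table, in which 9 of 56748 genes carry one of these names, and all 9 had enough counts to be tested. RNA was sequenced from the cerebellum of 6 C57BL/6J mice aged 90 to 120 days. The 3 MeHg mice were born to dams that drank water with 0.2 ppm methylmercury (MeHg), an organic mercury compound toxic to neurons, from the start of pregnancy until birth, and the 3 control mice to dams given 0 ppm. Labelled sex was 2 females and 1 male in either group, and the labels name no other treatment. Dam and litter are not named, so a p-value here covers no more than the variation among 6 libraries, which may share litters.

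AMPA receptors are cation channels of 4 subunits that carry most of the fast excitatory current at central synapses, and in the cerebellum they serve the synapses from mossy fibres to granule cells and from parallel and climbing fibres to Purkinje cells. Bergmann glia, the astrocytes that wrap Purkinje cell synapses, also carry AMPA receptors. Kainate receptors are built from Grik1, Grik2 or Grik3, which can form channels alone, with Grik4 or Grik5, which bind kainate tightly but need a partner of the first kind. Delta receptors do not open to glutamate in the usual way; they bind cerebellins released by presynaptic fibres and glycine or D-serine, and hold synapses together. In AMPA receptors the subunit encoded by Gria2 makes the channel nearly impermeable to calcium, because the codon for a glutamine in its pore loop is edited in the RNA to one for arginine.

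The stretch around that codon is shown because its editing sets Gria2 apart from the other AMPA genes in function, the same codon being edited also in Grik1 and Grik2, and because it shows how alike the genes are in sequence. It was found by translating the coding sequence of each gene's canonical GENCODE vM39 transcript (GRCm39) and searching for methionine, 2 glutamines and glycine, which gave 1 match in each of 8 genes and none in Grid1. Each line is spliced transcript, 24 bases on either side of the codon, with the codon of the first glutamine in capitals.
Gria1: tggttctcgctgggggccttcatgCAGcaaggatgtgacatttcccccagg
Gria2: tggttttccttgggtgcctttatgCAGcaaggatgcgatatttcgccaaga
Gria3: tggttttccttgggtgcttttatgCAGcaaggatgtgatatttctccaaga
Gria4: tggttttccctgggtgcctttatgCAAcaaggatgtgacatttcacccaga
Grik1: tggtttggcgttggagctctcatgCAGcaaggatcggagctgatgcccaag
Grik2: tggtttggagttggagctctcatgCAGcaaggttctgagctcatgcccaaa
Grik4: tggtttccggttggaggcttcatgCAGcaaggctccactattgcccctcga
Grik5: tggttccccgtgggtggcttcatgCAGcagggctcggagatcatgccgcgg
The codon lies in coding exon sequence of every gene, at chr11:57133920-57133922 on the plus strand in exon 11 of Gria1, chr3:80614218-80614220 on the minus strand in exon 11 of Gria2, chrX:40699142-40699144 on the plus strand in exon 11 of Gria3 and chr9:4464137-4464139 on the minus strand in exon 12 of Gria4. In the kainate genes, all on the minus strand, it lies at chr16:87737430-87737432 in exon 12 of Grik1, chr10:49120425-49120427 in exon 13 of Grik2, chr9:42458919-42458921 in exon 16 of Grik4 and chr7:24721922-24721924 in exon 15 of Grik5. The search itself requires a glutamine codon there, which was CAA in Gria4 and CAG in the others. The amino acids searched for also count in the identities that follow. Among the AMPA genes 41 to 48 of the 51 bases were identical between pairs, with Gria2 and Gria3 the most alike, and between AMPA and kainate genes 32 to 36 were. Grik1 and Grik2 shared 46. Gene counts do not tell edited from unedited RNA, so editing was not measured.

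The libraries held 14487022 to 15975367 counts in MeHg and 14116088 to 20303833 in controls. Control replicate 2 is labelled female but had 0.249 CPM of Xist, the RNA of the inactive X chromosome, and 87.2 CPM of the Y-linked gene Ddx3y. Ddx3y was also present in control replicate 3 (81.7 CPM) and MeHg replicate 2 (86.5 CPM), and stood at 0 CPM in the remaining libraries. By these genes sex was therefore not even between the groups, and no fit used sex read from them. CPM is a gene's count scaled to the TMM-adjusted library size. Of 16859 genes tested with edgeR's quasi-likelihood test, 2.36% were called at a Benjamini-Hochberg adjusted p under 0.05, 97 higher and 301 lower in MeHg. Upper-quartile scaling gave 78 higher and 119 lower. The labelled tissue was checked with 10 markers of granule cells, the most numerous cerebellar neurons, and all 10 were detected in every library. Their summed level was 4138 to 4838 CPM in MeHg and 5768 to 6200 CPM in controls. Of these 10 markers 4 were called lower, where 1.79% of all tested genes were. The sum of 5 forebrain markers stayed between 7.20 and 11.2 CPM. The sum of 8 choroid plexus markers ran from 1624 to 6934 CPM in MeHg and from 26.2 to 1957 CPM in controls. The sum of 7 brainstem and midbrain markers reached 137 CPM in MeHg replicate 2, while every remaining library held 1.47 to 4.52 CPM.

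Of the 9 subunits, 1 was called lower in MeHg and 0 higher by edgeR, where 1.79% and 0.575% of all tested genes were. The subunit called was Grik2. All 4 AMPA genes had a negative fold change, with a median of -0.21 on the log2 scale, and Gria2 and Gria4 came nearest to the threshold. Grid1, Grik4 and Grik5 had positive fold changes and Grik1 had almost none. Over the 9 the median log2 fold change was -0.18, and over all tested genes it was 0.01. At an unadjusted p under 0.05 there were 4 subunits, all lower, and 24.5% of all genes. DESeq2 called 8.61% of all genes, 3.38% higher and 5.23% lower, and among the subunits Grik2, Gria2 and Gria4 lower and 0 higher. Limma-voom called 2.12%, 0.475% higher and 1.65% lower, and among the subunits Grik2 lower and 0 higher. Every MeHg library lay below every control for 4 subunits and above every control for 1, where 15.5% and 13.9% of all genes did so (29.4% in all).

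Without control replicate 2, whose sex label the data go against, 0 subunits were called lower by edgeR, where 1.01% of all genes were. Grik2 was then at -0.35 (edgeR adjusted p = 0.0569), Gria1 at -0.21, Gria2 at -0.33, Gria3 at -0.19, Gria4 at -0.28, Grid1 at 0.24, Grik1 at -0.01, Grik4 at 0.25 and Grik5 at 0.21 on the log2 scale. Without MeHg replicate 2, the library with the brainstem markers, Grik2 and Gria2 were called lower, where 4.16% of all genes were. Without both of these libraries the same 2 subunits were called lower, where 6.65% of all genes were.

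**Figure D1:**
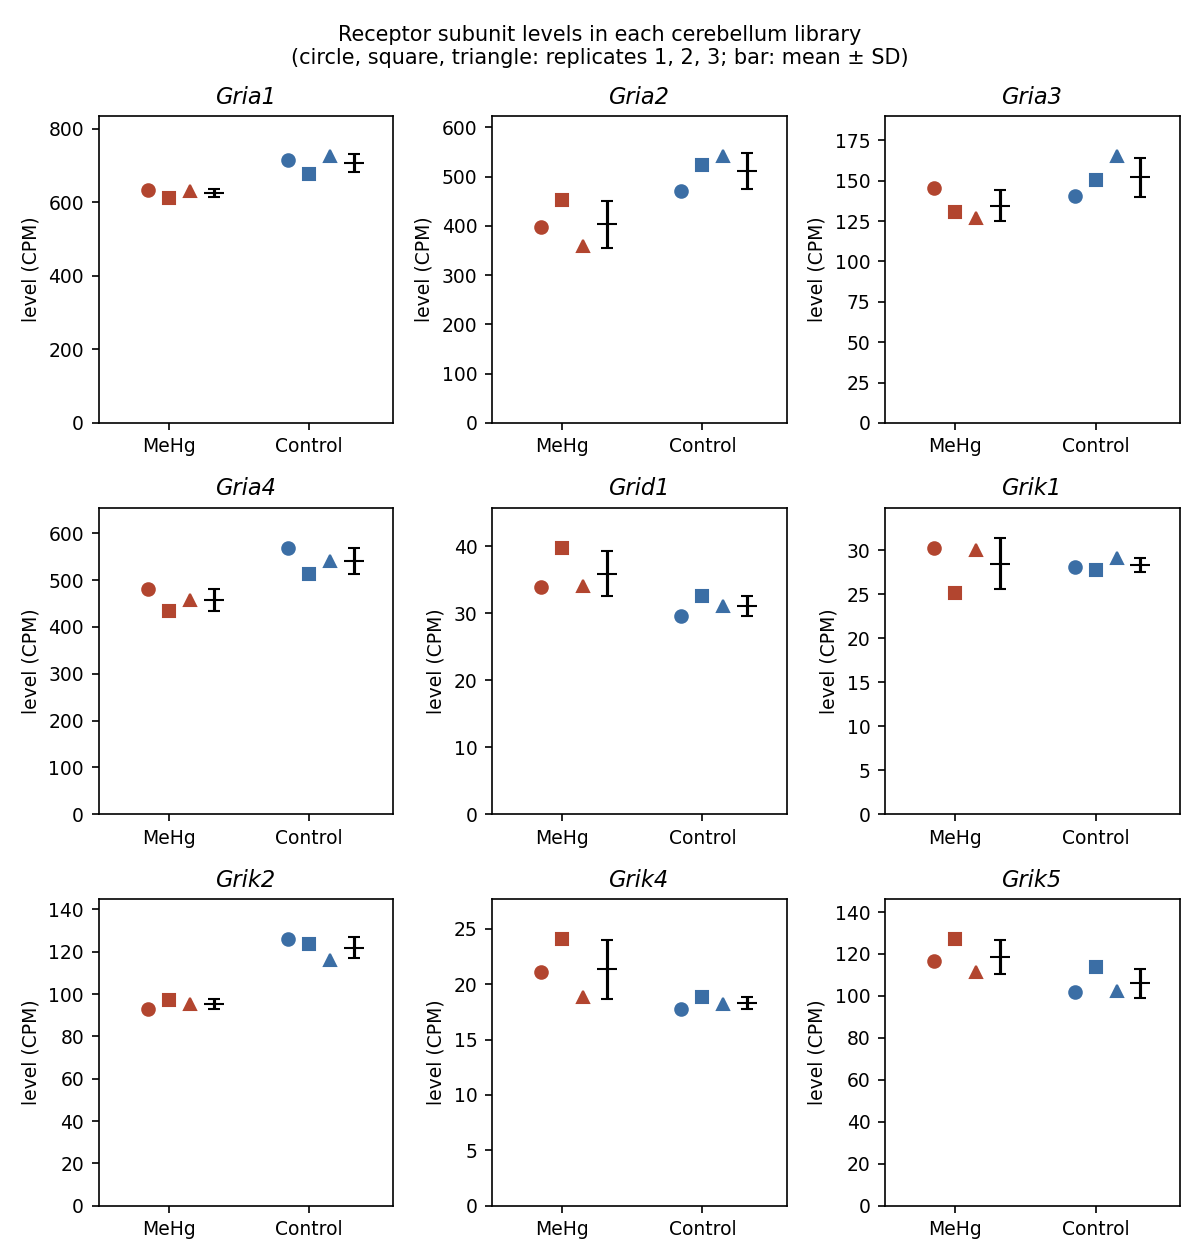
Level of each of the 9 subunits in CPM (y axis, from 0) in the 3 MeHg and the 3 control libraries, with a symbol for each replicate and the mean and SD beside it. Gria1, Gria2, Gria4 and Grik2 lay lower in every MeHg library than in any control, Grid1 lay higher in every MeHg library, and the groups overlapped for the other 4.

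Among the AMPA genes, Gria1 was the most abundant (chromosome 11, 56902213 to 57221070, plus strand, mm39). Its protein, GluA1, is the subunit whose phosphorylation and delivery to the membrane accompany synaptic strengthening in the forebrain, and in the cerebellum it is a main subunit of Bergmann glia. Gria1 stood at 633, 612 and 631 CPM in MeHg replicates 1, 2 and 3 and at 716, 678 and 726 CPM in control replicates 1, 2 and 3. The lowest control lay above the highest MeHg library. The difference was -0.18 ± 0.07 (log2, SE) and did not pass (edgeR adjusted p = 0.149).

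Gria2 (chromosome 3, 80588757 to 80710142, minus strand), which encodes the edited, calcium-blocking subunit, stood at 397, 452 and 359 CPM in the MeHg replicates and at 470, 523 and 541 CPM in the control replicates. The groups did not overlap, and MeHg replicate 2 lay nearest to the controls. The mean was 403 ± 46.9 CPM in MeHg and 512 ± 36.9 CPM in controls (SD, n = 3 each), a log2 fold change of -0.34 ± 0.10 (SE, edgeR adjusted p = 0.0824). Without MeHg replicate 2 the fold change was -0.43 and passed (edgeR adjusted p = 0.0202). Leaving out any other single library it did not pass, with fold changes between -0.40 and -0.26 and adjusted p up to 0.290. It passed with labelled sex as a term (adjusted p = 0.0481), a label that the data go against in control replicate 2.

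Gria3, on the X chromosome (40489731 to 40767478, plus strand), stood at 146, 131 and 127 CPM in the MeHg replicates and at 141, 150 and 165 CPM in the control replicates. MeHg replicate 1 lay above control replicate 1, so the groups overlapped. The fold change was -0.18 ± 0.08 (log2, SE, edgeR adjusted p = 0.206), and -0.11 without control replicate 3. Gria4 (chromosome 9, 4417896 to 4796234, minus strand), a fast-gating subunit of granule cells and Bergmann glia, stood at 480, 433 and 457 CPM in the MeHg replicates and at 569, 513 and 540 CPM in the control replicates. No MeHg library reached the lowest control. Its fold change was -0.24 ± 0.07 (edgeR adjusted p = 0.0913).

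The make-up of the AMPA family was close to even between the groups. Per length, in FPKM of the deposited table, the 4 genes summed to 207, 197 and 200 FPKM in the MeHg replicates and to 239, 227 and 242 FPKM in the control replicates, so every MeHg library lay lower. Gria2 made up 12.03 ± 1.48% of that sum in MeHg and 13.11 ± 1.03% in controls (SD, n = 3 each), with overlapping libraries. Gria1 made up 48.0 ± 0.90% in MeHg and 46.6 ± 0.25% in controls, and its share was higher in every MeHg library. The shares of Gria3 and Gria4 overlapped between the groups, and no share was tested.

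Grid1 (chromosome 14, 34542065 to 35305336, plus strand) encodes the delta subunit that is spread widely through the brain. It stood at 33.9, 39.8 and 34.0 CPM in the MeHg replicates and at 29.6, 32.5 and 31.1 CPM in the control replicates. Every MeHg library lay above every control, and the highest value was that of MeHg replicate 2. The fold change was 0.21 ± 0.09 (log2, SE, edgeR adjusted p = 0.214), and 0.14 without MeHg replicate 2.

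Grik2 (chromosome 10, 48970929 to 49664862, minus strand) encodes the main low-affinity kainate subunit of granule cells. It stood at 92.9, 97.3 and 95.5 CPM in the MeHg replicates and at 126, 124 and 116 CPM in the control replicates. The lowest control exceeded the highest MeHg library by more than the range within either group. Grik2 fell by 21.9%, to 95.2 ± 2.22 CPM in MeHg, against 122 ± 5.10 CPM in controls (SD, n = 3 each), a log2 fold change of -0.36 ± 0.06 (SE, edgeR adjusted p = 0.0431). Its p ranked 52nd of the 16859 genes. With 1 library left out, Grik2 was called only without MeHg replicate 2 (edgeR adjusted p = 0.0174). Leaving out MeHg replicate 1 or 3, or control replicate 1, 2 or 3, gave an adjusted p of 0.0645, 0.146, 0.125, 0.0569 and 0.207. Of all tested genes, 0 were called lower without MeHg replicate 1 or 3 or control replicate 1 or 3. Without control replicate 2, 1.01% were, and without MeHg replicate 2, 4.16%. The fold change of Grik2 stayed between -0.39 and -0.33 in these 6 fits.

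Grik1 (chromosome 16, 87692788 to 88087153, minus strand), a low-affinity subunit expressed by Purkinje cells, stood at 30.3, 25.1 and 30.0 CPM in the MeHg replicates and at 28.1, 27.7 and 29.2 CPM in the control replicates. MeHg replicate 2 lay below all controls and the other MeHg libraries above them. The fold change was 0.01 ± 0.10 (log2, SE, edgeR adjusted p = 0.969). Grik3, the remaining low-affinity gene, averaged 106 ± 8.06 CPM in MeHg against 106 ± 2.03 CPM in controls (SD, n = 3 each).

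Grik4 and Grik5 encode the high-affinity partners. Grik4 (chromosome 9, 42429431 to 42855789, minus strand) stood at 21.2, 24.1 and 18.8 CPM in the MeHg replicates and at 17.8, 18.9 and 18.2 CPM in the control replicates. The groups overlapped through MeHg replicate 3 and control replicate 2. Grik5 (chromosome 7, 24709274 to 24771771, minus strand), the usual partner of Grik2 in granule cells, stood at 117, 127 and 111 CPM in the MeHg replicates and at 102, 114 and 102 CPM in the control replicates. It overlapped as well, since control replicate 2 exceeded MeHg replicate 3. The fold changes were 0.22 ± 0.11 for Grik4 and 0.16 ± 0.07 for Grik5 (log2, SE, edgeR adjusted p = 0.260 and 0.219), and 0.14 and 0.11 without MeHg replicate 2. Grid1, Grik4 and Grik5 were each highest, within both groups, in the library numbered 2. In both groups that library also had the highest brainstem and midbrain sum. That sum was 137 CPM in MeHg replicate 2 and 3.14 CPM in control replicate 2, against 1.47 and 2.37 CPM in control replicates 1 and 3. MeHg replicate 3 held 4.52 CPM. Both libraries numbered 2 also held the Y-linked Ddx3y, as did control replicate 3. The part of that tissue or of sex in these values was not tested.

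Relative to Grik5, Grik2 lay lower in every MeHg library than in any control. In FPKM, the level of Grik2 was 0.310, 0.299 and 0.335 of that of Grik5 in the MeHg replicates and 0.483, 0.423 and 0.443 of it in the control replicates. Shares were taken of the summed FPKM of Grik1, Grik2, Grik4 and Grik5. Grik3, at a mean of 11.04 FPKM in MeHg and 11.1 FPKM in controls, was left out of that sum. Grik2 made up 19.0 ± 0.74% of it in MeHg and 24.9 ± 1.10% in controls. Grik5 made up 60.4 ± 1.39% in MeHg and 55.4 ± 1.47% in controls (SD, n = 3 each). Neither share overlapped between the groups. The sum itself was 35.4 ± 1.31 FPKM in MeHg and 34.8 ± 1.30 FPKM in controls, and overlapped. These ratios follow from the levels above and were not tested. Grik2 and Grik5 are also far apart in length and GC content, and with offsets for both the log2 fold changes were -0.14 for Grik2 and 0.12 for Grik5, against -0.36 and 0.16 without.

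In order of level per length, controls had Gria1 at 110 FPKM, Gria4 at 80.6, Gria2 at 30.9, Grik5 at 19.3, Gria3 at 14.5, Grik2 at 8.65, Grid1 at 4.90, Grik1 at 3.96 and Grik4 at 2.88 FPKM, and no neighbours in this order overlapped over the 3 libraries. The order of the means was the same in MeHg, where 2 pairs of neighbours overlapped: Gria2 (24.2 ± 2.63 FPKM) with Grik5 (21.4 ± 1.29 FPKM), and Grik1 (3.96 ± 0.43 FPKM) with Grik4 (3.34 ± 0.39 FPKM, SD, n = 3). The deposited table lists 15548 bases for Gria2 and 13246 for Grik2, more than their canonical transcripts of 10767 and 9437 bases, and a longer listed length lowers an FPKM.

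**Figure D2:**
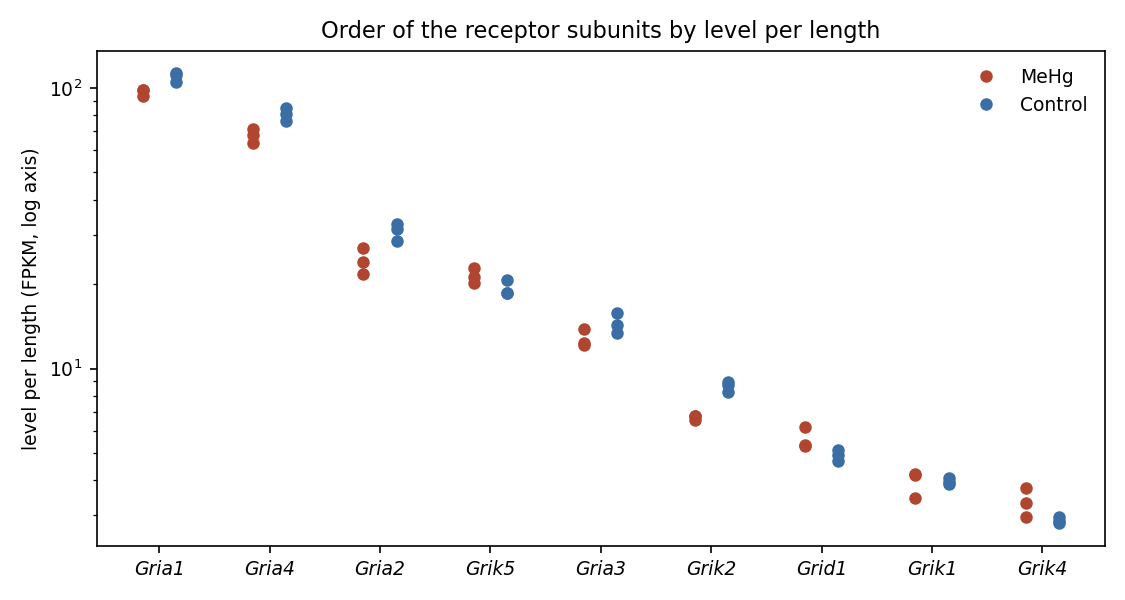
Level per length of the 9 subunits in FPKM (log axis), ordered by the control mean, with 1 point for each of the 3 MeHg and 3 control libraries. The spread runs from 110 FPKM for Gria1 to 2.88 FPKM for Grik4 in controls, and Gria2 meets Grik5 only in MeHg.

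The fold changes of the subunits ran along with the length and base composition of the genes. The 2 genes with the longest listed length, Gria2 and Grik2, had the lowest fold changes, and the 3 with positive values above 0.1, Grid1, Grik4 and Grik5, had lengths of 5168 to 5962 bases. The GC content of the longest transcript was 37.0% to 38.0% in Gria4, Gria2 and Grik2 and 51.4% to 58.9% in Grid1, Grik4 and Grik5. Across the 9 genes, which share the same 6 libraries, Pearson's r of the fold change was -0.76 with log2 length and 0.89 with GC content. Over all tested genes the median log2 fold change was 0.10 for the 3176 genes under 2 kb and -0.17 for the 889 genes of 12 kb or more, and it was -0.09 for the 1086 genes under 40% GC and 0.08 for the 3241 genes of 55% or more.

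With an offset per library for length, the fold change of Grik2 was -0.21 ± 0.06 and that of Gria2 was -0.17 ± 0.07, and neither passed (SE, edgeR adjusted p = 0.125 and 0.224). Adding GC content to that offset, they were -0.14 ± 0.06 and -0.11 ± 0.08 (edgeR adjusted p = 0.206 and 0.458). Gria1 moved little, to -0.14 with either offset, and Gria3 moved to -0.07 and -0.03. Gria4 stood at -0.20 and -0.13. Grid1 and Grik4 remained at 0.22 to 0.26 with both. Under either offset 0 genes of the whole table were called, against 3590 and 3529 genes at an unadjusted p under 0.05, and all 4 AMPA fold changes stayed negative. The offsets were fitted to each library's deviation from the gene means over all 6 libraries. They therefore also remove any difference between the groups that runs with length or GC content, whatever its source, which was not tested.

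**Figure D3:**
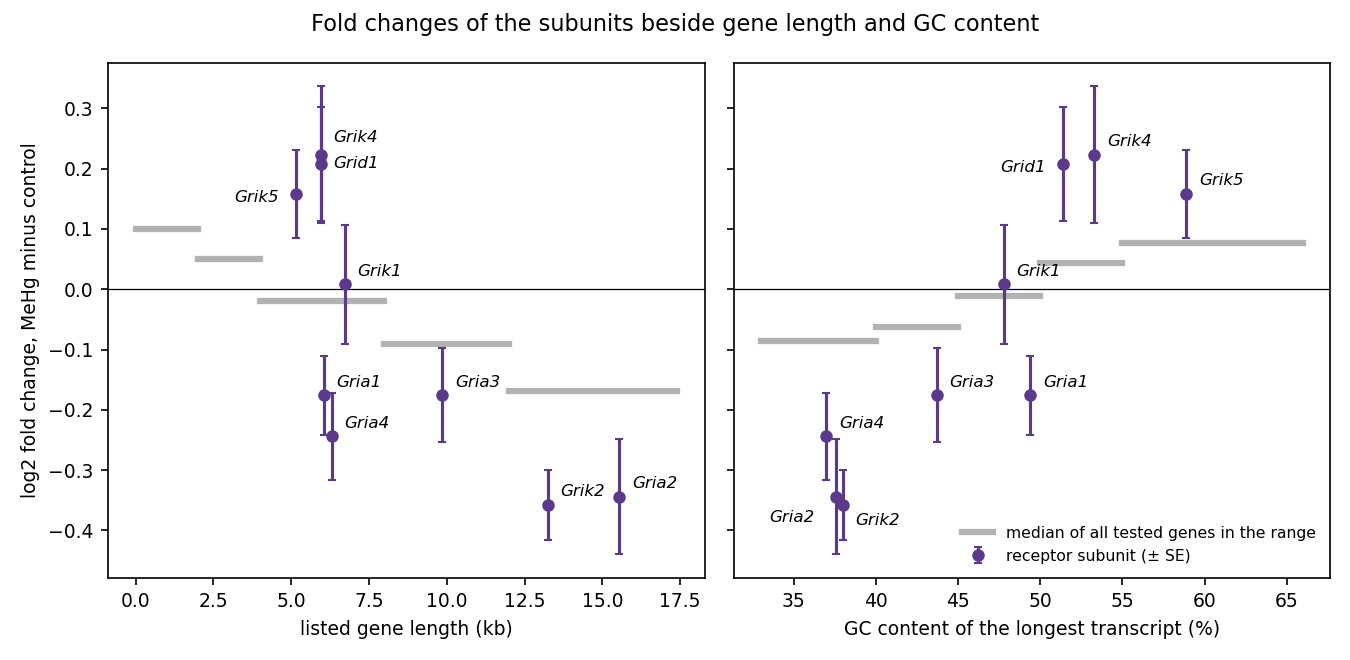
Log2 fold change (MeHg minus control, ± SE) of the 9 subunits against the listed gene length in kb (left) and the GC content in percent (right), with the median of all tested genes in each range as a grey line. Grik2 and Gria2 sit at the long, GC-poor and low end, and Grik5 and Grik4 at the GC-rich and high end, and the medians of all genes run the same way, between 0.10 and -0.17 with length.

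**Figure D4:**
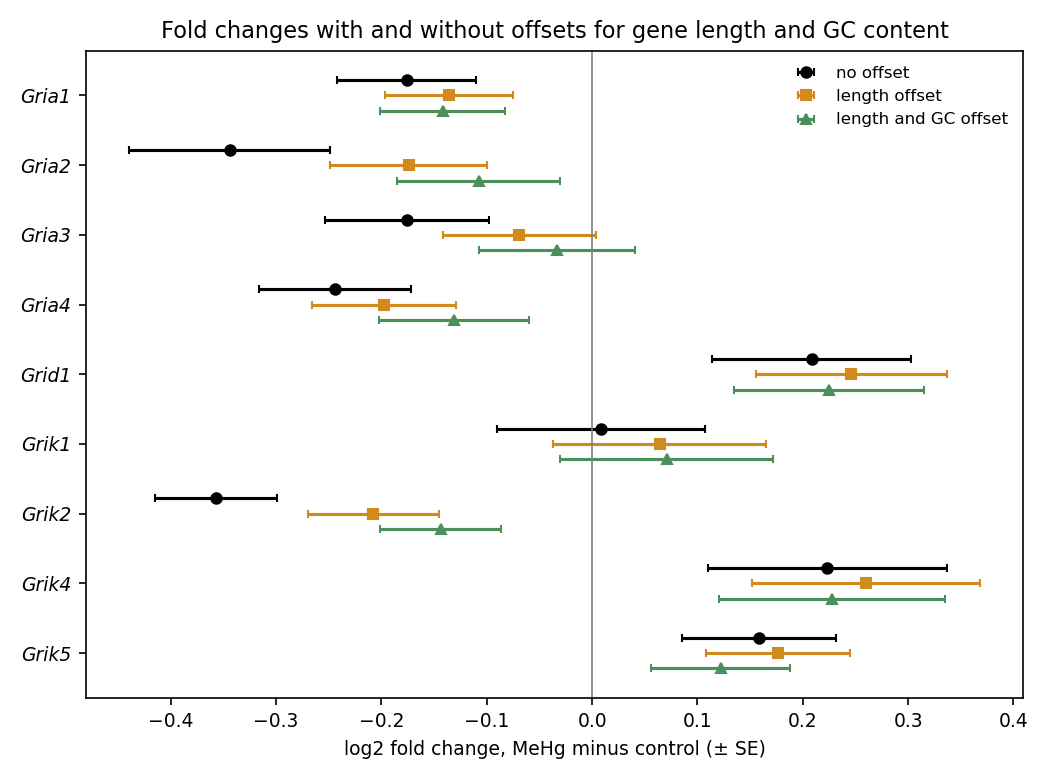
Log2 fold change of each subunit (x axis, ± SE) without an offset, with a length offset, and with a joint length and GC offset. Grik2 lies at -0.36, -0.21 and -0.14 in the 3 fits, while Grid1 lies between 0.21 and 0.25.

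All 10 granule cell markers had negative fold changes, as had the 4 AMPA genes, Grik2 and 8249 of the 16859 tested genes. The markers had a median log2 fold change of -0.37, against -0.36 for Grik2. They ran from -0.58 ± 0.10 for Gabra6 to -0.06 ± 0.09 for Barhl1 (SE, edgeR adjusted p = 0.0431 and 0.734). In such bulk RNA, fewer cells of a type and less RNA per cell cannot be told apart. Per 1000 CPM of the summed granule markers, a measure chosen after the values were seen, Grik2 averaged 21.3 ± 2.16 CPM in MeHg against 20.5 ± 0.81 CPM in controls, and Gria2 averaged 90.3 ± 16.5 CPM in MeHg against 86.3 ± 9.11 CPM in controls (SD, n = 3 each), with overlapping libraries for both. Gria1 (139 ± 8.54 CPM in MeHg and 119 ± 4.41 CPM in controls) and Gria4 (102 ± 2.80 CPM in MeHg and 91.0 ± 1.82 CPM in controls) were higher in every MeHg library on that measure, as were Grid1, Grik1, Grik4 and Grik5, and Gria3 overlapped. The granule sum that divides these values was itself lower in every MeHg library, so a gene with an even level rises on this measure. Grik1, with a log2 fold change of 0.01, averaged 6.32 CPM in MeHg and 4.77 CPM in controls on it. The share of all genes higher in every MeHg library on this measure was not computed. For the marker lists that follow, edgeR called 0.575% of all tested genes higher and 1.79% lower, and 24.5% had an unadjusted p under 0.05. In CPM, 15.5% of all genes were lower in every MeHg library and 13.9% were higher in every one. The sum of 8 Purkinje cell markers was 7027 to 9016 CPM in MeHg and 9077 to 9983 CPM in controls. Of these 8 markers 0 were called by edgeR and 2, Itpr1 and Rgs8, had an unadjusted p under 0.05. Itpr1 weighs most in the sum, at a mean of 3150 CPM in MeHg and 4033 CPM in controls. Of the 8, 7 had a negative fold change, and the median was -0.20 on the log2 scale. Only Itpr1 and Rgs8 were lower in every MeHg library. Car8 was at -0.24, Calb1 at -0.20, Ppp1r17 at -0.19, Slc1a6 at -0.17, Gad1 at -0.02 and Pcp2 at 0.06. The sum of 7 markers of Bergmann glia and astrocytes was 3078 to 3212 CPM in MeHg and 3293 to 3444 CPM in controls. Of these 7 markers 0 were called and 4 had an unadjusted p under 0.05, in both directions. Slc1a3 (-0.25) and Aqp4 (-0.22) were lower in every MeHg library, and Gfap (0.25) and Aldh1l1 (0.15) were higher in every one. The sum of 6 oligodendrocyte markers was 5764 to 7863 CPM in MeHg and 5123 to 5844 CPM in controls, with 0 of 6 called and 5 at an unadjusted p under 0.05. The sums of 3 other lists were higher in every MeHg library than in any control. For 5 ependymal markers they were 36.8 to 59.1 CPM in MeHg and 15.7 to 23.6 CPM in controls, with 2 called higher. For 5 endothelial markers they were 144 to 213 CPM in MeHg and 112 to 134 CPM in controls, with 1 called higher, and for 5 microglial markers 100 to 123 CPM in MeHg and 84.7 to 94.6 CPM in controls, with 0 called and 3 at an unadjusted p under 0.05. The part of any cell type in the subunit values was not tested.

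Of 51 companion genes listed for these receptors, Grik3 among them, 50 were matched and tested; 3 were called lower and 0 higher by edgeR, where 1.79% and 0.575% of all tested genes were. At an unadjusted p under 0.05 there were 23 of the 50, where 24.5% of all genes were, and the median log2 fold change was -0.05, against 0.01 over all genes. The kainate auxiliary subunit Neto2, which slows the gating of Grik2 channels, fell to 105 ± 5.81 CPM in MeHg, against 130 ± 2.42 CPM in controls (-0.31 ± 0.06, edgeR adjusted p = 0.0433). Its relative Neto1 reached 15.9 CPM in MeHg replicate 2, while the remaining libraries held 3.55 to 6.04 CPM. Frrs1l, an endoplasmic reticulum protein needed to assemble AMPA receptors, fell to 450 ± 26.2 CPM in MeHg, against 594 ± 17.1 CPM in controls (-0.40 ± 0.07, adjusted p = 0.0431). Dlg2, the postsynaptic scaffold PSD-93, fell to 306 ± 20.5 CPM in MeHg, against 402 ± 21.7 CPM in controls (-0.39 ± 0.07, adjusted p = 0.0433; SD, n = 3 each, and SE). All 3 fell in every MeHg library relative to every control, and under either offset 0 of the 50 genes were called.

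None of the 18 auxiliary subunits of AMPA receptors was called by edgeR, where 2.36% of all genes were, 8 had an unadjusted p under 0.05, where 24.5% of all genes had, and their median log2 fold change was -0.04. The smallest p belonged to the secreted noelin Olfm3 (-0.42 ± 0.10, adjusted p = 0.0615) and to the cornichon Cnih3 (1.08 ± 0.29, adjusted p = 0.0740), which was at 14.04, 13.74 and 12.88 CPM in the MeHg replicates and at 4.46, 10.03 and 4.53 CPM in the control replicates. The main cerebellar auxiliary subunit Cacng2 (stargazin) was at -0.05 ± 0.07. Of the 6 ligands and partners of delta receptors 0 were called by edgeR, where 2.36% of all genes were. Of these 6, 5 had an unadjusted p under 0.05, where 24.5% of all genes had. The granule cell cerebellin Cbln3, which is also 1 of the 10 granule markers, was at -0.32 ± 0.09 (adjusted p = 0.0733), and Cbln4, at 1.5 ± 0.52 (adjusted p = 0.131), reached 14.9 CPM in MeHg replicate 2, while the remaining libraries held 1.93 to 4.31 CPM. Cbln1, a cerebellin released by parallel fibres, was at -0.18 ± 0.09. The editing enzyme Adarb1, which edits the Gria2 codon shown above, averaged 405 ± 27.6 CPM in MeHg against 428 ± 5.23 CPM in controls (-0.08 ± 0.07, adjusted p = 0.522), and Adarb2 was at 0.14 ± 0.09 (SE for fold changes, SD for levels, n = 3 each).

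**Figure D5:**
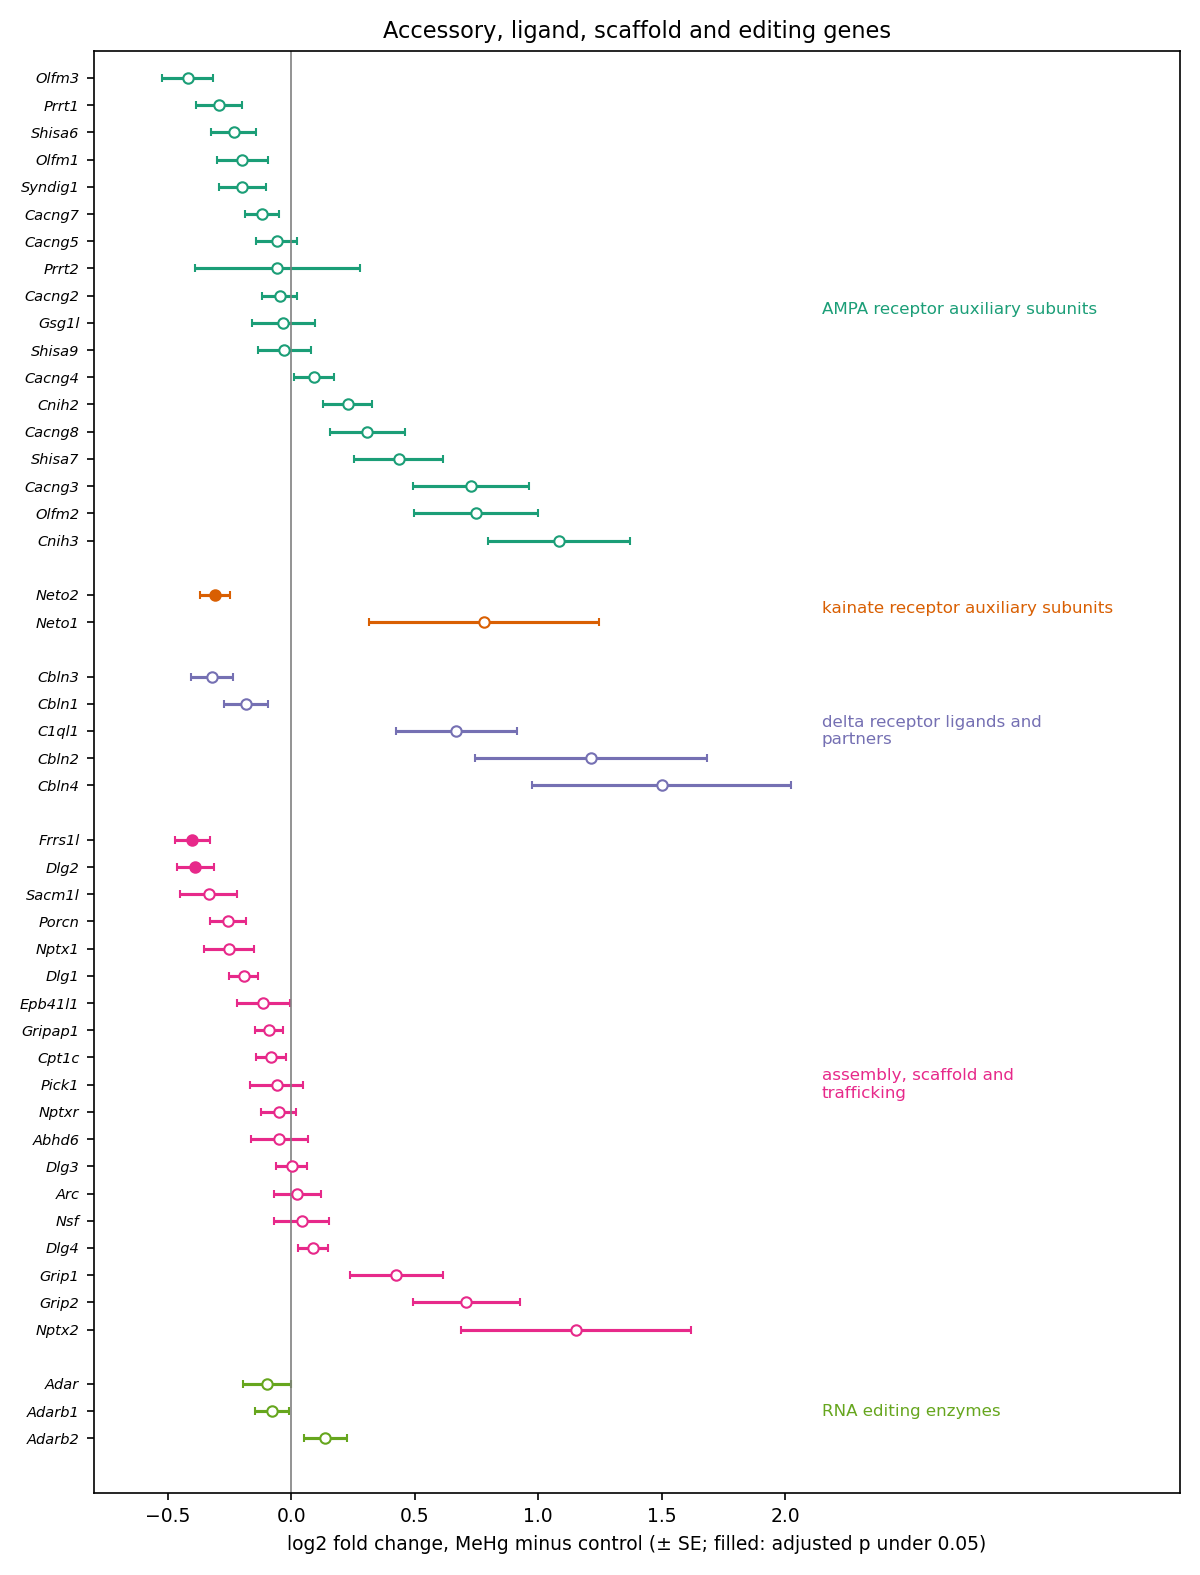
Log2 fold change (MeHg minus control, ± SE) of the auxiliary, ligand, scaffold and editing genes described in the text and others of their lists, grouped by role, with filled points at an edgeR adjusted p under 0.05. The filled points are Neto2, Frrs1l and Dlg2, all below 0, and Cbln4 lies farthest to the right with a wide SE.

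The RefSeq promoter table (GRCm38.p6, 250 bases before to 50 after a start, so not in the coordinates of the count table) held 5 of the 9 genes. Those of Grik2, the gene called, and of Gria2, the next lowest, are shown with capitals for any match to 5 motifs searched on both strands: the NRF1 site (GCGC, any base, then TGCGC), the GC box GGGCGG, the TATA box TATAAA, the cAMP response element TGACGTCA and the E-box CAGATG.
Grik2, chr10:49788705-49789004, minus strand: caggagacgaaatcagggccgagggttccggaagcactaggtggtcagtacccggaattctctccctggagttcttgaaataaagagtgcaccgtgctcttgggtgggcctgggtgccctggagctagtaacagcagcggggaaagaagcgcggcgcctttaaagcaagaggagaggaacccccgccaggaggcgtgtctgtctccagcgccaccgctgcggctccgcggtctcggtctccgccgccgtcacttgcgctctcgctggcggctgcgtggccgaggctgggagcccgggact
Gria2, chr3:80802786-80803085, minus strand: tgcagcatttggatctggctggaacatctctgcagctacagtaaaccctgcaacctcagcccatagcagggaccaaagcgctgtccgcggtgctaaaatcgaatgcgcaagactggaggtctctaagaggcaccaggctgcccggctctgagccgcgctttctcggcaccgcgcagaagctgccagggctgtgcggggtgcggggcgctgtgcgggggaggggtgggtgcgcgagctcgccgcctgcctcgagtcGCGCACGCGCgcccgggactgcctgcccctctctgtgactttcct
The Gria2 window held 1 match to the NRF1 letters, which 4.60% of the 32851 promoters in the table held, and no other match. The Grik2 window held none of the 5. The windows were 64.7% GC with 26 CpG in Grik2 and 65.7% GC with 26 CpG in Gria2, against medians of 52.7% and 7 over the table. The windows of Grik4 and Grik5 each held 2 matches to the GC box, which 35.7% of promoters held.

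Over the 6 libraries the tested gene most like each subunit in log2 CPM, among 10220 genes of at least 10 CPM, was Jarid2 for Gria1, Lrig1 for Gria2, Dgkh for Gria3, Ddx19b for Gria4, Cacng3 for Grid1, Grik3 for Grik1, Golga5 for Grik2, Hcn3 for Grik4 and Arhgef17 for Grik5. Pearson's r was 0.99 to 1.00 for all 9, which with 6 libraries from 2 groups is a description only.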

How the data were processed

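Gene counts and FPKM values were deposited for 6 libraries. The deposited counts are raw whole numbers per gene. The FPKM values were made by the authors from counts, the listed gene length and a library total of 14803520 to 21392002. The submitters' processing notes name mm39 and DESeq2; the aligner, the counting tool, the annotation and any use of strand were not given in the sources used here. All sample columns matched a label.

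Low counts were removed with filterByExpr and library sizes were adjusted by TMM. The MeHg and control groups were then compared by the quasi-likelihood test of edgeR 4.0.16 in R 4.3.3, group as the only term, adjusted by Benjamini-Hochberg over 16859 genes. The SE is the absolute log2 fold change over the square root of F. Alternatives used DESeq2 1.42.0, limma 3.58.1, other scalings, filters and covariates, log2 FPKM plus 1 or 0.1, left-out libraries and loess offsets (span 0.5) for length and GC content. Fits were tested on simulated data. Genes overlapping a subunit had at most 16 counts in a library. Members and lists were chosen with earlier results of these data known. Named were all members, and from each companion list the genes called and the 2 with the smallest p. Of the markers, Gabra6 and Pcp2 were named by rule. Cacng2, Cbln1, Barhl1 and the other Purkinje cell and glial markers named singly fall outside these rules. They were chosen after their values were seen. Some genes of these lists are not reported here. No 2 libraries of a group were copies (chi-square per degree of freedom 7.11 to 17.8).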

Additional observations from a re-analysis of the deposited data

How the results depend on the processing

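The fit reported called 398 genes, 1 subunit lower and 3 companion genes. DESeq2 called 1379 genes, 3 subunits lower and 11 companion genes, and no filter on low counts gave 2378, 3 and 22. A threshold of 0.1 gave 1653, 3 and 9. Leaving out both libraries numbered 2 gave 1723, 2 and 11, and labelled sex as a term gave 609, 2 and 5. The libraries labelled female alone gave 166 genes, Grik2 and 0 companion genes, and upper-quartile scaling 197, Grik2 and 1. Both fits that use the sex label take control replicate 2 as a female, against its Xist and Ddx3y levels. The offset for length, the offset for length and GC content, log2 FPKM + 1 and log2 FPKM + 0.1 each gave 0 genes, 0 subunits lower and 0 companion genes, with 3529 to 3887 genes at an unadjusted p under 0.05. DESeq2 size factors, a minimum of 1 CPM in 3 libraries and limma-voom stayed within 1.5 times of each count. Leaving out 1 library at a time gave 0 to 1091 genes, 0 to 2 subunits lower and 0 to 5 companion genes. Leaving out MeHg replicate 2 gave 1091 genes, leaving out control replicate 2 gave 220 and leaving out MeHg replicate 1 gave 2. Leaving out MeHg replicate 3, control replicate 1 or control replicate 3 gave 0 genes, with 3099, 3042 and 2572 below 0.05 before adjustment. Of 21 alternatives, 12 called Grik2, 6 Gria2, 3 Gria4 and none another subunit or any subunit higher. Grik1 turned negative with log2 FPKM + 1 (-0.0041) and + 0.1 (-0.0060) and ranged from -0.0398 to 0.0997 with 1 library left out; the other 8 subunits kept their sign in all 21. Same-numbered libraries did not all vary together (r = 0.187, 0.346 and -0.236 for numbers 1, 2 and 3). These are deviations from means of 3 libraries, so they cannot tell whether the numbers mark pairs. The replicate block gave 648 genes, 1 subunit lower and 10 companion genes. Where counts moved without the alternative's construction explaining it, the cause was not tested. The SE did not follow depth alone: it was 0.0958 for Gria2 at 5327 to 10479 counts a library, 0.0581 for Grik2 at 1417 to 2484 and 0.113 for Grik4 at 253 to 378.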
